A study of Mus musculus with 12 samples.

Results

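The skeletal myosin heavy chain cluster of mouse chromosome 11 was examined in lists of H3K4me1, H3K4me2 and H3K4me3 peaks from C2C12 cells, an established line of mouse myoblasts that form myotubes in low serum. The cluster was taken as the mm9 window from 66.87 to 67.20 Mb of chromosome 11, of 330001 bp, which was defined to hold 6 myosin genes in the order Myh3, Myh2, Myh1, Myh4, Myh8 and Myh13. Every peak with at least 1 bp in this window was counted, which gave 7 of the 134900 peaks in the 6 lists. By mark, H3K4me1 had 0 peaks with S2101 and 1 with vehicle, H3K4me2 had 0 and 2, and H3K4me3 had 3 and 1.

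The S2101 cells were kept for 48 h, to day 2, in differentiation medium with 2% horse serum, 25 mM glucose and the LSD1 inhibitor S2101 at 10 µM. The vehicle cells were kept in the same medium without the inhibitor. H3K4me1 and H3K4me2 were measured by chromatin immunoprecipitation and sequencing in experiment 1 and H3K4me3 in experiment 2, and differences between H3K4me3 and the other marks cannot be told apart from differences between experiments. Each mark and treatment had 1 library, so no difference between treatments has a replicate check and none was tested. The number of reads behind each list is unknown. The labels call the cells of all 6 libraries differentiating, and the peak lists hold no expression values against which that could be checked.

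Myosin heavy chains are the motor proteins of the thick filament. Myh3 encodes the embryonic and Myh8 the perinatal chain of developing and regenerating muscle. Myh2, Myh1 and Myh4 encode the fast chains IIa, IIx and IIb of adult fibres, and Myh13 encodes the chain of extraocular and laryngeal muscle. H3K4me3 is found at active promoters, H3K4me1 at enhancers and promoter flanks, and H3K4me2 at both. The demethylase LSD1 (Kdm1a) acts on H3K4me1 and H3K4me2 and leaves H3K4me3, and the design asks where these marks lie when it is inhibited. In the RefSeq gene table of GRCm38.p6 the 6 genes stand in the order given above, with Tmem220, Adprm and Sco1 before Myh3 and with the antisense lncRNA gene Myhas between Myh1 and Myh4. That table is of another build than the peaks, so the genes in the window were not checked against mm9 positions, no peak was assigned to a gene, exon or promoter, and peaks are placed by mm9 position only.

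The upstream sequences of the myosin genes are shown because H3K4me3 is a promoter mark and because they show which members resemble each other before their starts. All 6 members had an entry in the RefSeq promoter table of GRCm38.p6, on the + strand. Positions in the next sentences are of that build and cannot be set against the mm9 peaks. For Myh3 the 250 bases before the start are given (chr11:67078050-67078299), with TATAAA in capitals. For Myh2 (chr11:67170836-67170935), Myh1 (chr11:67199876-67199975), Myh4 (chr11:67237588-67237687) and Myh8 (chr11:67277004-67277103) 100 bases are given, with matches to TCAAATTATNNATAG and to TTCTAATTATATCC in capitals.
Myh3: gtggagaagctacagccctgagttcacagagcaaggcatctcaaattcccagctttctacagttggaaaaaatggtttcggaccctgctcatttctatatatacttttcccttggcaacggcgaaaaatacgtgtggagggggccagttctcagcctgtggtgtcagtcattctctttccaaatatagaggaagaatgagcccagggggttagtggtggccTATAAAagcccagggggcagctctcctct
Myh2: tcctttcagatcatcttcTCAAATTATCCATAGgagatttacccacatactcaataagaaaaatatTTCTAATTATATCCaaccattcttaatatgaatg
Myh1: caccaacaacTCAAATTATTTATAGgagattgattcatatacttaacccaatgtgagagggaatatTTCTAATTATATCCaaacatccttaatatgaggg
Myh4: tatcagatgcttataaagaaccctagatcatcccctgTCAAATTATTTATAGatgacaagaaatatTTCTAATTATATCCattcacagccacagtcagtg
Myh8: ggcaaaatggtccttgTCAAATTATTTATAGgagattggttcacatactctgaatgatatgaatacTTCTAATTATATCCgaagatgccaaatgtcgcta

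Myh2, Myh1, Myh4 and Myh8 shared both stretches, in the same order. They are the longest run of identical letters that these members have in common (TTCTAATTATATCC, 14 bases) and the longest stretch before it with at most 2 differing positions (TCAAATTATNNATAG, 15 bases), chosen after the sequences had been read. Both strands of all 32851 upstream sequences of 250 bases in the table were searched. Each stretch stood in these 4 members and in no other upstream sequence (4 of 32851, or 0.0122%). Its presence in these 4 follows from how it was chosen, so this share is not a test of specificity. The longest run of identical letters between members was 22 bases, between Myh1 and Myh8, while Myh13 shared at most 9 bases with any other member. TATAAA stood in 4 members (Myh3, Myh1, Myh4 and Myh8), against 12.4% of all upstream sequences. The match of Myh8, on the other strand, lies within its TCAAATTATNNATAG stretch, and Myh1 and Myh4 have such a match there besides others elsewhere. The E-box letters CANNTG stood in 4 members (Myh3, Myh4, Myh8 and Myh13), against 66.2% of all upstream sequences. These matches describe letters in a fixed stretch, and whether any factor binds them was not tested.

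Peaks of the 6 lists together covered 4176 bp of the window, or 1.27%, in 5 separate regions. With S2101, H3K4me1 and H3K4me2 covered 0 bp and H3K4me3 covered 2526 bp (0.765% of the window). With vehicle, H3K4me1 covered 439 bp (0.133%), H3K4me2 1853 bp (0.562%) and H3K4me3 744 bp (0.225%). Of the 5 regions, 2 held S2101 peaks only, 2 held vehicle peaks only and 1 held peaks of both treatments. The S2101 lists thus held H3K4me3 peaks in the cluster and none of H3K4me1 or H3K4me2. Stretches without such peaks are common: of all genome tiles of the same length, 60.3% held no S2101 H3K4me1 peak and 47.8% no S2101 H3K4me2 peak.

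**Figure D1:**
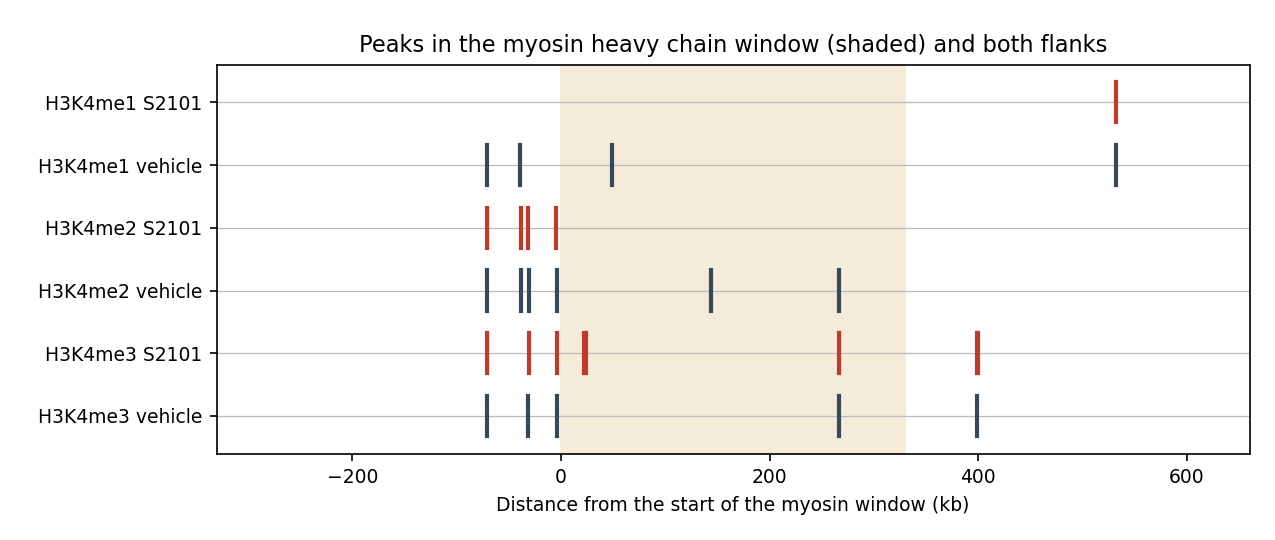
Positions of all peaks in the myosin window (shaded) and in the windows of equal length on either side, for the 6 lists; the x axis is the distance in kb from the start of the window, red ticks are S2101 and dark ticks vehicle peaks, and ticks are drawn wider than the peaks so that they can be seen. The window holds 3 S2101 and 4 vehicle peaks, and the red H3K4me3 tick near 22 kb, which has no tick below it, is a pair of peaks.

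The H3K4me3 peaks listed with S2101 but not with vehicle were an adjacent pair near the left end of the window. They lay at chr11:66891938-66892897 (960 bp) and chr11:66893243-66894166 (924 bp), 21.9 and 23.2 kb from the window start, with 345 bp between them and a span of 2229 bp in all. No vehicle H3K4me3 peak and no H3K4me1 or H3K4me2 peak of either treatment overlapped them. The nearest peaks of any list were 24.3 kb to the left and 24.5 kb to the right. Thus 2 of the 3 S2101 H3K4me3 peaks of the cluster lacked a vehicle counterpart, against 8.43% of all 14324 S2101 H3K4me3 peaks. These 2 are neighbours and not independent. With peaks up to 1 kb apart joined, the pair counts as 1 region and the window holds 4 regions.

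The authors' scores, which rank peaks within a list only, were 276 and 295 for this pair. These were low for the S2101 H3K4me3 list, of which 12.5% and 13.2% of peaks had lower scores, and whose median was 3100. In that list 59.8% of peaks scored 3100 or more. Among the 1207 S2101-only H3K4me3 peaks the scores of the pair were high, as the median there was 151, and 88.6% and 90.7% had lower scores. Of the 1432 S2101 peaks in the same decile of the list by score, 18.9% lacked a vehicle peak (95% exact binomial interval 16.9 to 21.1%, counting error only). The pair was also wide among S2101-only peaks: 92.5% and 91.1% of them were narrower, and their median width was 622 bp. In the whole S2101 H3K4me3 list the pair was narrow. There 18.9% and 17.6% of peaks were narrower, and the median width was 1737 bp.

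H3K4me3 without any other peak was uncommon in the S2101 list. Of its 14324 peaks, 199 (1.39%) overlapped no peak of the other 5 lists, or 16.5% of the S2101-only peaks. By score the myosin pair ranked 17 and 21 among these 199. Both shares are over peaks of all scores, and none was taken over peaks that score like the pair. Of the 1207 S2101-only peaks, 3.89% had another S2101-only H3K4me3 peak within 1 kb, as both of the pair do.

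A single region was listed in both treatments, toward the right end of the window at chr11:67135943-67137110, 266 kb from its start. The S2101 H3K4me3 peak there was 642 bp wide (chr11:67136263-67136904, score 117) and the vehicle H3K4me3 peak 744 bp (chr11:67136252-67136995, score 185). The S2101 peak lay wholly inside the vehicle peak. The width ratio of S2101 to vehicle was 0.863, in the opposite direction to the median of 1.06 over the 12212 H3K4me3 peaks that matched 1 peak of the other list each way. Of all 12212 pairs, 25.0% had a narrower S2101 peak and 2.09% had a lower ratio than the one in the cluster. Both peaks ranked low in their lists, with 2.09% of S2101 and 7.67% of vehicle H3K4me3 peaks scoring lower. In the lowest decile by score, to which both belong, 65.2% of S2101 peaks lacked a vehicle peak and 12.4% of vehicle peaks lacked an S2101 peak, against 8.43% and 1.30% over the whole lists.

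**Figure D2:**
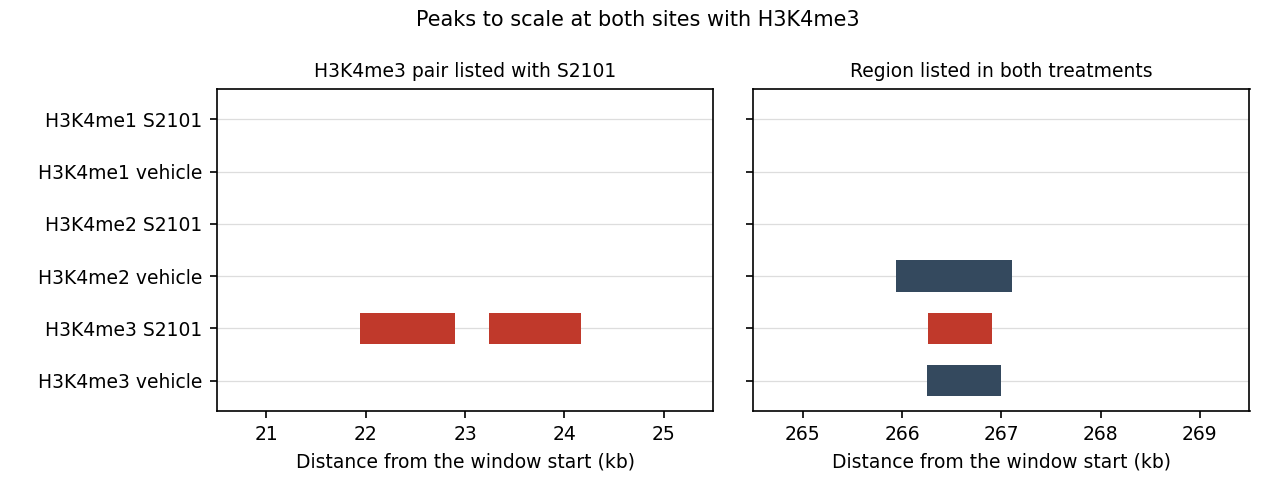
Peaks to scale at both sites with H3K4me3 in the window, with the distance from the window start in kb on the x axis and the 6 lists as rows (red S2101, dark vehicle). At left, 960 bp and 924 bp of H3K4me3 with S2101 have no peak of another list; at right, H3K4me3 of both treatments lies inside the 1168 bp H3K4me2 peak of vehicle cells.

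Vehicle H3K4me2 covered this shared region over 1168 bp with a score of 297, and the H3K4me3 peaks of both treatments lay entirely within it. S2101 H3K4me2 was not listed there. Regions with this set of peaks, H3K4me3 in both treatments and H3K4me2 with vehicle only and no H3K4me1, numbered 630 of 51356 merged regions (1.23%). The H3K4me3 peaks of the window overlapped H3K4me2 of their own treatment in 0 of 3 cases with S2101 and in 1 of 1 with vehicle, against 88.2% of S2101 and 96.6% of vehicle H3K4me3 peaks genome-wide. These shares are over whole lists, in which the window's H3K4me3 peaks score low. No share was taken over peaks of similar score, and 2 of the 3 S2101 peaks are the adjacent pair. Of the 2 vehicle H3K4me2 peaks, 1 overlapped vehicle H3K4me3, against 71.8% of the list.

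Both vehicle H3K4me2 peaks of the cluster lacked an S2101 H3K4me2 peak, against 25.8% of all 21447 vehicle H3K4me2 peaks. The other of these peaks, at chr11:67013020-67013704 (685 bp, 143 kb from the window start), stood without any other mark and had a score of 126, with 7.87% of the list scoring lower. In the lowest decile of the vehicle H3K4me2 list by score, to which it belongs, 82.2% of peaks lacked an S2101 peak. In the fourth decile from below, which holds the peak at the shared region, 30.2% did (95% exact binomial interval 28.2 to 32.2%). Most vehicle peaks that score like the weaker peak were thus without an S2101 counterpart, and a minority of those that score like the stronger one.

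The only H3K4me1 peak of the cluster was listed with vehicle, at chr11:66918647-66919085 (439 bp, score 154, 48.6 kb from the window start). It overlapped no other peak, where 30.4% of vehicle H3K4me1 peaks overlap H3K4me2 and 13.8% overlap H3K4me3 of the same treatment. Its lack of an S2101 counterpart was the usual case, as 67.0% of all 40432 vehicle H3K4me1 peaks had none, and 81.5% of those in its decile by score. Regions with H3K4me1 in vehicle only and no other mark were the kind to which 36.8% of all merged regions belonged. With 0 peaks with S2101 and 1 with vehicle, no difference in H3K4me1 over the cluster is read from these lists.

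**Figure D3:**
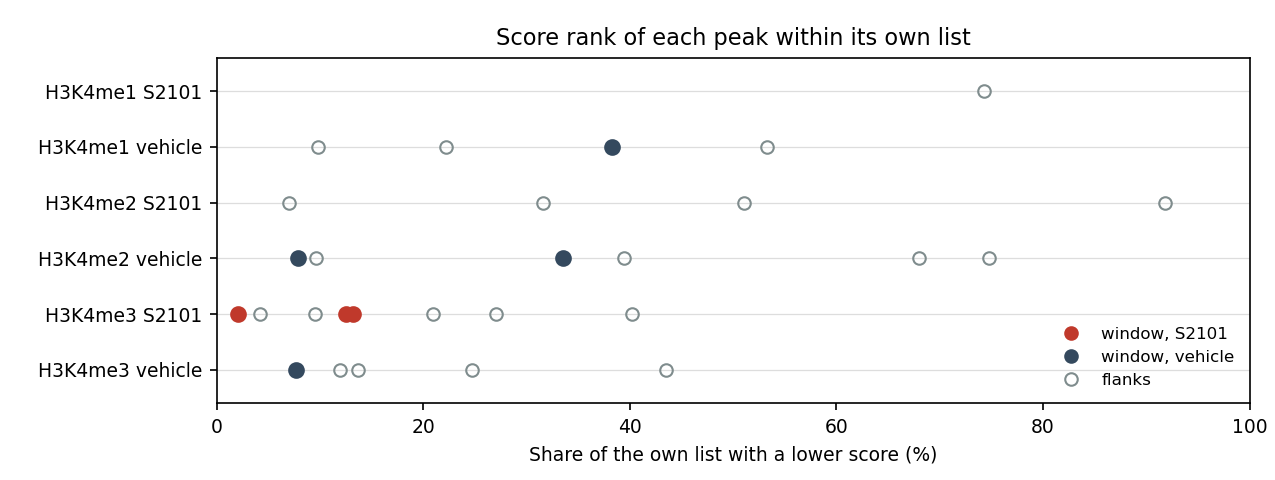
Score rank of every peak in the window (filled, red S2101 and dark vehicle) and in the flanks (open), as the share of peaks in the same list with a lower score, in percent. All 7 window peaks stand below 40%, and the window's H3K4me3 peaks stand between 2.09% and 13.2%.

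Between these sites the cluster was empty in all 6 lists over long stretches. There was no peak over 93.9 kb between the H3K4me1 peak and the H3K4me2 peak at 143 kb, over 122 kb from there to the shared region, and over 131 kb from the shared region to the next peak, of which 62.9 kb lie inside the window. The median distance between neighbouring merged regions was 6.28 kb over 51284 distances, and 8.45%, 6.47% and 5.98% of distances were at least as long as these. No list thus held a domain of peaks over the body of the cluster in either treatment. Signal too weak to be called a peak was not examined.

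The 330001 bp to the left of the window held more covered bases in every list but that of S2101 H3K4me1, which was empty in both. S2101 peaks there covered 0 bp for H3K4me1, 2392 bp for H3K4me2 and 4046 bp for H3K4me3, and vehicle peaks 991 bp, 6285 bp and 3904 bp. All 4 vehicle H3K4me2 peaks of the left flank had an S2101 counterpart, and so had all 3 vehicle H3K4me3 peaks. The nearest of these to the myosin window had a score of 3100 for H3K4me3 in both treatments. At least that score was reached by 59.8% of S2101 and 56.5% of vehicle H3K4me3 peaks. This nearest H3K4me3 peak spanned 2022 bp with S2101 and 2014 bp with vehicle. H3K4me2 was listed there over 629 bp with S2101 and over 3053 bp with vehicle, and the vehicle peak ended 2.37 kb before the window. On the right, S2101 peaks covered 442 bp for H3K4me1, 0 bp for H3K4me2 and 1125 bp for H3K4me3, and vehicle peaks 529 bp, 0 bp and 760 bp. The H3K4me3 there, at 67268540 to 67269673, was listed as 2 adjacent peaks with S2101 and as 1 with vehicle, without H3K4me2 in either treatment. H3K4me2 was thus listed with S2101 in the left flank but not in the cluster.

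**Figure D4:**
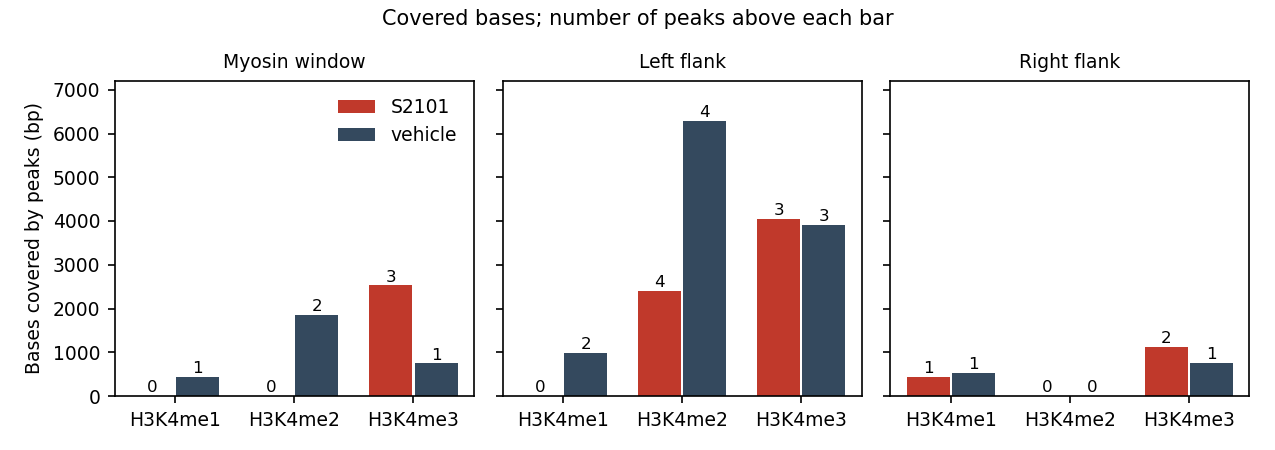
Bases covered by peaks (bp, y axis from 0) for each mark with S2101 (red) and vehicle (dark) in the myosin window and in both flanks of equal length, with the number of peaks above each bar. In the window, H3K4me1 and H3K4me2 bars are at 0 bp with S2101, and H3K4me3 stands at 2526 bp with S2101 and 744 bp with vehicle.

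To place the cluster in the genome, the chromosomes were cut into 7779 tiles of the same length, of which the window is 1. Between 47.8% and 60.3% of all tiles held as few or fewer covered bases than the window, depending on the list. For S2101 H3K4me1 and H3K4me2 these were tiles without a peak. In the other lists most of them also held no peak. This was so for 3834 of 4107 with vehicle H3K4me1 and 3354 of 4096 with vehicle H3K4me2. For H3K4me3 it was 3563 of 4689 with S2101 and 3662 of 3802 with vehicle. These shares thus do not place the window among tiles that hold peaks. The window's total of 7 peaks compares with a median of 6 per tile over the 6 lists, and 36.2% of tiles held no peak at all.

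Among tiles, the H3K4me3 ratio of the window lay near the end of the distribution. The ratio of S2101 to vehicle covered bases was 3.40 for H3K4me3 in the window, against a median of 1.08 over 4117 tiles with vehicle H3K4me3 (quartiles 1.03 and 1.15) and 1.10 over the whole lists. Only 2 of the 4117 tiles, the window included, had a ratio as high. Tiles with S2101 but no vehicle H3K4me3 have no ratio and are left out of this ranking. Of all 7779 tiles, 3662 held no vehicle H3K4me3 peak and 3563 no S2101 H3K4me3 peak. The window's ratio rests on the pair of S2101-only peaks over a vehicle total of 744 bp. Without the outer 50 kb on each side, and so without the pair, it is 0.863. Of the 1277 tiles with a single vehicle H3K4me3 peak, 13 (1.02%) held at least 3 S2101 peaks. The window reaches 3 only with both peaks of the pair counted, which lie 345 bp apart and may be 1 site. For H3K4me2 the ratio was 0 in the window, against a median of 0.451 over tiles and 0.467 over the whole lists. A ratio of 0 was also found in 9.06% of 4425 tiles with vehicle H3K4me2. Of the 704 tiles with 2 vehicle H3K4me2 peaks, 10.8% held no S2101 peak. For H3K4me1 the window's ratio was 0 as well, against a median of 0.265 over tiles and 0.347 over the whole lists. It was 0 in 24.4% of 3945 tiles, and 74.6% of the 571 tiles with a single vehicle H3K4me1 peak held none with S2101.

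**Figure D5:**
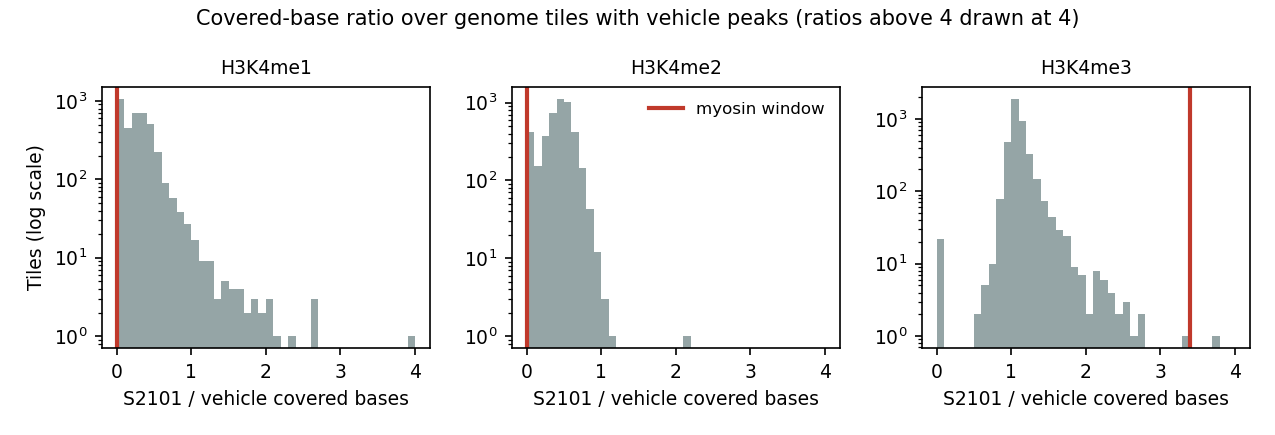
Distribution of the ratio of S2101 to vehicle covered bases over genome tiles of the window's length that hold vehicle peaks of the mark (y axis, tiles on a log scale; ratios above 4 are drawn at 4), with the myosin window as a red line. The window is at 0 for H3K4me1 and H3K4me2, where many tiles also stand, and at 3.40 for H3K4me3, beyond nearly all of them.

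Of the 4216 tiles that held S2101 H3K4me3, 243 (5.76%) had no S2101 H3K4me1 or H3K4me2, as in the cluster. Among the 4097 of these that also held vehicle H3K4me2, as the cluster does, it was 145 (3.54%). These tiles were not matched to the window by the number or the score of their peaks.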

How the data were processed

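Of the series' 12 samples, the peak lists of 6 were used and the 4 inputs and 2 H3 samples were not analysed here. MACS in Galaxy called the peaks of each library by itself, per the file headers, and the deposited score is the authors' value for each peak. The submitters' processing notes name Bowtie2, deepTools and the mm9 build. Caller settings, the input used and read numbers are not given here, so depth is unknown, and a shallower or less enriched library can list fewer or narrower peaks. Positions are 1-based. Overlap means at least 1 bp, and merged regions join overlapping or touching peaks. Tiles are in phase with the window and run from the first to the last peak of each autosome and of X. Every merged region in the window is named. The members and lists were chosen with earlier results of these data known, and the score deciles, the tiles with equal vehicle counts and the sequence letters were added after the window's peaks were seen. Interval functions were tested on simulated data against bedtools 2.31.1. The software was Python 3.11.15 with pandas 2.3.3, numpy 2.4.6, matplotlib 3.10.9 and scipy 1.17.1.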

Additional observations from a re-analysis of the deposited data

How the results depend on the processing

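Of 145 alternative values for 40 results, 110 stayed within 1.5 times the reported value or, for shares of tiles, inside its interval. Many of these were values of 0 that stayed 0. A stricter score or overlap, shorter lists or a narrower window cannot raise a 0, so the count of 110 does not measure stability. With scores of at least 200, vehicle H3K4me1 had 0 peaks and 0 bp, vehicle H3K4me2 1 peak and 1168 bp, and vehicle H3K4me3 0 peaks and 0 bp, so 0 H3K4me3 peaks were shared between treatments and 0 vehicle peaks between H3K4me2 and H3K4me3. The S2101-only H3K4me3 pair passed this threshold. With lists cut to equal length, vehicle H3K4me1 had 0 peaks and 0 bp and 0 H3K4me3 peaks were shared. Widened by 50 kb on each side, the window held 3 S2101 and 5 vehicle H3K4me2 peaks (1301 and 6586 bp, 3 shared from either side, ratio 0.198), 5 S2101 and 3 vehicle H3K4me3 peaks (5367 and 3534 bp, 3 shared from either side, ratio 1.52) and 2 vehicle H3K4me1 peaks (1104 bp). Narrowed by 50 kb, it held 0 vehicle H3K4me1 peaks (0 bp) and 1 S2101 H3K4me3 peak (642 bp), and the H3K4me3 ratio turned to 0.863, since the pair lies outside. The H3K4me1 ratio under the score threshold, equal lists and the narrowed window, and the H3K4me3 ratio under the score threshold, have no value because no vehicle peak remains. No paired analysis was possible because each mark and treatment has 1 library. All 7 peaks of the window score below the median of their own list, so depth and the calling threshold limit each statement on presence.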
